A study of Mus musculus with 6 samples.

Results

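The cell cycle and DNA replication genes were read in the livers of male mice of the outbred ICR stock that had been given the anti-inflammatory drug sulfasalazine. The 39 genes were taken by name from the deposited table of 42612 loci, and for each the locus of that name with an Ensembl transcript was used, with the most abundant locus where there were several; Foxm1 was found by its transcripts instead. All 39 were found: 12 genes of G1 and of entry into the cycle, 10 of DNA synthesis in S phase, and 17 of G2 and mitosis. The genes were chosen because the nuclear receptor CAR, which many drugs activate, can drive hepatocyte growth in mice. Of the 6 libraries, 3 came from mice given 1000 mg/kg sulfasalazine by oral gavage for 4 weeks, in 0.1% DMSO, and 3 from controls given 0.1% DMSO alone; the labels give all an age of 8 weeks. The labels do not say whether a library is 1 mouse or a pool, so the p-values below measure the spread between these libraries.

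Adult hepatocytes are mostly quiescent and enter the cycle after loss of tissue or under a mitogen. In G1, D-type cyclins with CDK4 phosphorylate the retinoblastoma protein, which frees E2F factors to switch on the genes of DNA synthesis. The genes of G2 and mitosis come on later, through MuvB complexes with B-MYB and FOXM1, and are held down in resting cells by the DREAM complex. Their transcripts are therefore used as a sign of dividing cells, of whatever type, in a piece of tissue.

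Values are FPKM, fragments scaled by transcript length and by library size, so levels can be set side by side between genes. Products of FPKM and transcript length at loci with 1 transcript piled up at 1 value per library. If that step is 1 fragment, the libraries held about 13600000 to 20000000 fragments, with sulfasalazine library 2 the shallowest. A further 155 to 243 loci per library lay at 1/2 of that step, and 188 to 276 at 2 steps. Whether the step is 1 fragment was not tested, and all fragment numbers below rest on it. All 8 hepatocyte markers were above 1 FPKM in each library, with albumin, Alb, at 14702 to 18897 FPKM. Whole liver was sequenced, so more cycling cells and more of a transcript per cell cannot be told apart. Over all 11969 loci that reached 1 FPKM in at least 3 libraries, limma called 2 higher, which is 0.0167%, and 0 lower, which is 0.0%, at an adjusted p under 0.05. At an unadjusted p under 0.05 it gave 436 higher, or 3.64%, and 463 lower, or 3.87%.

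The phases stood at different levels in every library. Of the 12 G1 genes, 7 or 8 were at 1 FPKM or more per library, and of the 10 S phase genes 3 or 4 were. None of the 17 G2 and mitosis genes reached 1 FPKM in any library, and 9 to 15 of them reached 0.1 FPKM. Summed FPKM was 24.5 to 28.9 for the G1 genes, 12.8 to 15.4 for the S phase genes and 2.26 to 6.51 for the G2 and mitosis genes. In the main test 11 genes passed the filter, 8 of G1 and 3 of S phase, and 28 lay below it. Of those 11, limma called 0 higher and 0 lower, and the lowest adjusted p was 0.577. At an unadjusted p under 0.05 it gave 0 higher and 1 lower, Ccnd2. Their median log2 fold change was -0.18, beside -0.0021 over all tested loci. Over all 39 genes, groups that did not overlap were found for 4 genes higher and 1 lower. Among the 38 above 0 in each library they were found for 3 and 1, where 6.3% of the 16485 annotated loci above 0 in each library had the higher and 6.3% the lower order. With no filter, limma tested all 39 among 42612 loci and called 0, with a lowest adjusted p of 0.723 and an unadjusted p under 0.05 for Ccnd2 and Bub1.

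**Figure D1:**
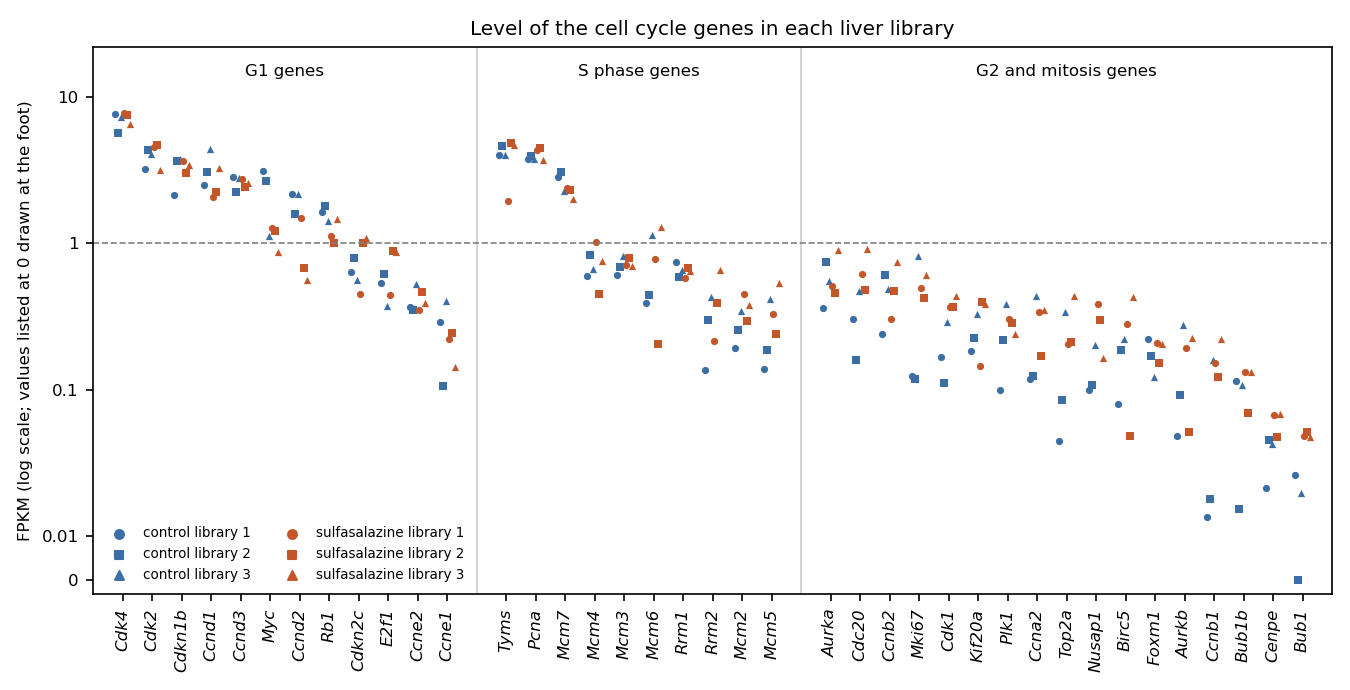
FPKM on a log scale of each of the 39 genes in each of the 6 libraries, ordered by mean level within G1, S phase, and G2 and mitosis; colour marks the group, marker shape the library number, and the dashed line 1 FPKM. Cdk4 and Cdk2 lead the G1 genes, Tyms, Pcna and Mcm7 lead the S phase genes, and every point of the G2 and mitosis genes lies below 1 FPKM.

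The promoters of 4 genes are shown because these were the G2 and mitosis genes whose 3 treated libraries all lay above the 3 controls: Cdk1, Cdc20, Bub1 and Cenpe. CDK1 is the kinase that drives entry into mitosis, CDC20 an activator of the anaphase-promoting complex, BUB1 a spindle checkpoint kinase, and CENP-E a kinesin of the kinetochore. The sequences are RefSeq's on GRCm38.p6 and run 5′ to 3′ on the gene's strand, from 250 bases before the annotated start to 30 bases after it. They lie at chr10:69352883-69353162 on the minus strand, chr4:118437314-118437593 on the minus strand, chr2:127831830-127832109 on the minus strand and chr3:135212313-135212592 on the plus strand. Capitals mark CCAAT, or ATTGG on the other strand, which is the box bound by NF-Y, and TTTGAA, or TTCAAA on the other strand, the commonest form of the CHR element of cell cycle genes. No match overlapped another.
Cdk1: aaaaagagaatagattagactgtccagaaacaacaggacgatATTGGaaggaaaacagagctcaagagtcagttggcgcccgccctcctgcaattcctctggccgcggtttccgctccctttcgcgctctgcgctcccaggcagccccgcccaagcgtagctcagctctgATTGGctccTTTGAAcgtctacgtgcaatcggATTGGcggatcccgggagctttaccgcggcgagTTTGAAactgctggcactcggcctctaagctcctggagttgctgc
Cdc20: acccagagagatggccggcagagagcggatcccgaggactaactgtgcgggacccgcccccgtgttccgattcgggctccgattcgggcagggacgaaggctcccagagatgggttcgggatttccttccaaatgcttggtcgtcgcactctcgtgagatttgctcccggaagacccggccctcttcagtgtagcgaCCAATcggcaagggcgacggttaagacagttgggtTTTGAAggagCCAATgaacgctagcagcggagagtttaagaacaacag
Bub1: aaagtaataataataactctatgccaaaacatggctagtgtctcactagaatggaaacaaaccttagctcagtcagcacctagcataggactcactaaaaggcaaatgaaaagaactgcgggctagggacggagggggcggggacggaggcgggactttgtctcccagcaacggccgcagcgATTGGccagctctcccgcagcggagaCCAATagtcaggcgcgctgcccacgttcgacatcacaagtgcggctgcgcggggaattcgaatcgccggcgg
Cenpe: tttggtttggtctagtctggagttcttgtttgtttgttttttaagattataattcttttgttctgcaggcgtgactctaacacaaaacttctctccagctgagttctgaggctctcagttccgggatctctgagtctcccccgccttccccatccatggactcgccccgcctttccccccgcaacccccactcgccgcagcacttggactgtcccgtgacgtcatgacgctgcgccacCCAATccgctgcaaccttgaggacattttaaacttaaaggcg
The table held promoters for 29 of the 39 genes, some with more than 1 start. CCAAT stood in 11 of 13 sequences of G2 and mitosis genes, in 9 of 10 of S phase genes and in 4 of 9 of G1 genes, against 36.1% of the 32851 promoters in the table. TTTGAA stood in 5 of 13, 1 of 10 and 0 of 9, against 17.2%. TTTNGCGC, a form of the E2F site searched on both strands, stood in 1 of 13, 3 of 10 and 0 of 9, against 1.28%. Of the sequences printed above, Cdk1 held 3 CCAAT, 2 TTTGAA and 1 TTTNGCGC, and Cdc20 held 2 CCAAT and 1 TTTGAA. Bub1 held 2 CCAAT and Cenpe 1, with no TTTGAA in the window.

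The 3 D-type cyclins, the sensors of growth signals in G1, had mean levels of 0.910 to 3.34 FPKM, and the groups did not overlap for 1 of them. Cyclin D2, Ccnd2, was at 2.17, 1.59 and 2.18 FPKM in the control libraries and at 1.49, 0.681 and 0.562 in the treated ones. All 3 treated values lay below the controls, though sulfasalazine library 1 was close to control library 2. Its means were 1.98 ± 0.341 and 0.910 ± 0.504 FPKM (SD, n = 3 each), and the fitted log2 fold change came to -0.67, SE 0.22 (limma, adjusted p = 0.577; unadjusted p = 0.0221). It was the 1 gene of the 39 with treated libraries all lower than controls, where 6.46% of all tested loci had that order and 6.71% the opposite one. Ccnd2 lies on chromosome 6 from 127125162 to 127152193 in GRCm38 and shares exonic sequence with antisense genes on the other strand.

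Cyclin D1, Ccnd1, the cyclin most used as a marker of hepatocyte entry into the cycle, was at 2.51, 3.06 and 4.45 FPKM in the control libraries. In the treated ones it was at 2.09, 2.25 and 3.29 FPKM, so the groups overlapped, with control library 3 the highest. Its log2 fold change was -0.28 with a 95% confidence interval of -0.80 to 0.23. Cyclin D3, Ccnd3, was at 2.85, 2.24 and 2.79 FPKM and at 2.77, 2.41 and 2.60, with a log2 fold change of -0.01 and an interval of -0.28 to 0.26. The spread of Ccnd3 between libraries was larger than the difference of its means. A further 13 loci that the table names Ccnd3 carry no Ensembl transcript and are not counted in these values.

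CDK4, the partner of the D-type cyclins, had the highest level of the 39 genes. Cdk4 was at 7.60, 5.70 and 7.27 FPKM in the control libraries and at 7.78, 7.55 and 6.56 in the treated ones, with overlapping groups. Cdk2, the partner of cyclins E and A, was at 3.21, 4.33 and 4.07 FPKM and at 4.53, 4.72 and 3.17. The intervals of their log2 fold changes were -0.25 to 0.42 for Cdk4 and -0.33 to 0.48 for Cdk2. The E-type cyclins that pair with CDK2 at the start of S phase were low: Ccne1 was at 0.107 to 0.402 FPKM and Ccne2 at 0.350 to 0.524 over the 6 libraries. In both, control library 3 was the highest and the groups overlapped.

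The brakes on G1 gave no call. Cdkn1b, which encodes the CDK inhibitor p27, stood at 2.14, 3.67 and 3.76 FPKM in the control libraries and at 3.65, 3.01 and 3.43 in the treated ones. Control library 1 was the lowest of the 6, and the interval of the log2 fold change was -0.37 to 0.53. Cdkn2c, which encodes the CDK4 and CDK6 inhibitor p18, was at 0.561 to 0.799 FPKM in control and 0.452 to 1.09 in treated libraries. Rb1, the retinoblastoma gene, was at 1.65, 1.79 and 1.42 FPKM and at 1.12, 1.01 and 1.46, with a log2 fold change of -0.26 and an interval of -0.60 to 0.09. Sulfasalazine library 3 was just above control library 3, so the groups overlapped. The table holds 2 further annotated loci named Rb1, both less abundant.

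Myc, a growth-promoting transcription factor and an immediate early gene of liver regeneration, was at 3.12, 2.68 and 1.11 FPKM in the control libraries. In the treated libraries it was at 1.28, 1.21 and 0.866 FPKM, so control library 3 lay with the treated libraries and the other controls well above. The fitted log2 fold change came to -0.59, SE 0.27 (limma, adjusted p = 0.711). Leaving out 1 library at a time, its log2 fold change ran from -0.88, without control library 3, to -0.40. E2f1, the E2F factor that drives S phase genes, was at 0.539, 0.613 and 0.371 FPKM and at 0.444, 0.889 and 0.872, with overlapping groups.

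**Figure D2:**
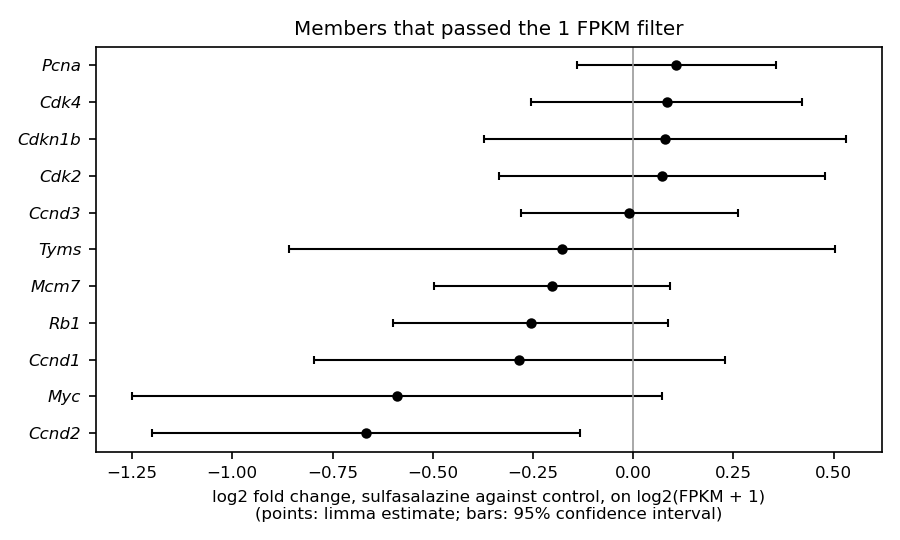
Log2 fold changes of sulfasalazine against control, on the log2(FPKM + 1) scale, of the 11 genes that passed the filter; points are limma estimates and bars 95% confidence intervals, 3 libraries per group. The interval of Ccnd2 alone, -1.20 to -0.13, lies on 1 side of 0, and Ccnd2 was not called after adjustment over all 11969 loci.

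Of the 10 genes of DNA synthesis, 7 had a higher mean in the treated libraries, the median ratio of treated to control means was 1.08, and 0 had groups that did not overlap. Over annotated loci above 0 in each library, 48.6% had a higher treated mean, with a median ratio of 0.992. The replicative helicase is made of MCM2 to MCM7, and the genes of its subunits stood at unequal levels. Mcm7 was at 2.83, 3.09 and 2.29 FPKM in the control libraries and at 2.38, 2.32 and 2.02 in the treated ones. In the annotation Mir25 and Mir93 lie within it, and Ap4m1 and Cops6 overlap it on the other strand. The means of the other 5 subunits lay between 0.247 and 0.704 FPKM in control and between 0.369 and 0.761 in treated libraries. Mcm6 varied most, at 0.390, 0.447 and 1.15 FPKM and at 0.785, 0.205 and 1.29, with its lowest and highest value both in treated libraries.

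Pcna, the sliding clamp of the replicative polymerases, was at 3.76, 3.93 and 3.78 FPKM in the control libraries and at 4.38, 4.51 and 3.72 in the treated ones. The groups overlapped, and the interval of its log2 fold change was -0.14 to 0.36. Tyms, thymidylate synthase, was at 4.01, 4.66 and 4.02 FPKM and at 1.95, 4.88 and 4.68, where sulfasalazine library 1 stood below the other 5. Its log2 fold change was -0.18, and 0.15 without that library. Reads of pseudogenes, annotated for Pcna and Tyms and also for Ccnd3, Ccnb1 and Ccnb2, could be shared with the loci of these genes. Of the subunits of ribonucleotide reductase, which makes deoxynucleotides, Rrm1 was at 0.580 to 0.748 FPKM over the 6 libraries and Rrm2, the subunit tied to S phase, at 0.137 to 0.656.

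The genes of G2 and mitosis were low, and many of them ranked the libraries alike. All 17 had a higher mean in the treated libraries, with a median ratio of the means of 1.44. The ratios ran from 1.10, at the locus that pools Foxm1 with other genes, to 3.20 for Bub1. Among the 6760 annotated loci below the filter and above 0 in each library, 45.6% had a higher mean in the treated libraries and the median ratio was 0.961. The groups did not overlap for 4 of the 17 genes, all higher. One of them, Bub1, was at 0 in control library 2; among the 16 genes above 0 in each library the count was 3, where 5.33% of the 6760 loci had that order and 6.41% the opposite one. The split was not by group alone. Control libraries 1 and 2 held the lowest value of 14 of the 17 genes, while control library 3 was the highest in 4 and sulfasalazine library 3 in 8. Of the 6760 low loci, 16.5% and 20.6% were lowest in control libraries 1 and 2, and 25.9% and 12.4% were highest in control library 3 and sulfasalazine library 3, so the count for control library 3 is near its share over all low loci. Relative to each gene's mean over the 6 libraries, the median was 0.472 and 0.515 in control libraries 1 and 2, 1.07 in control library 3, and 1.27, 0.978 and 1.48 in the treated libraries. Each of the 17 genes was lower in control library 2 than in sulfasalazine library 3.

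**Figure D3:**
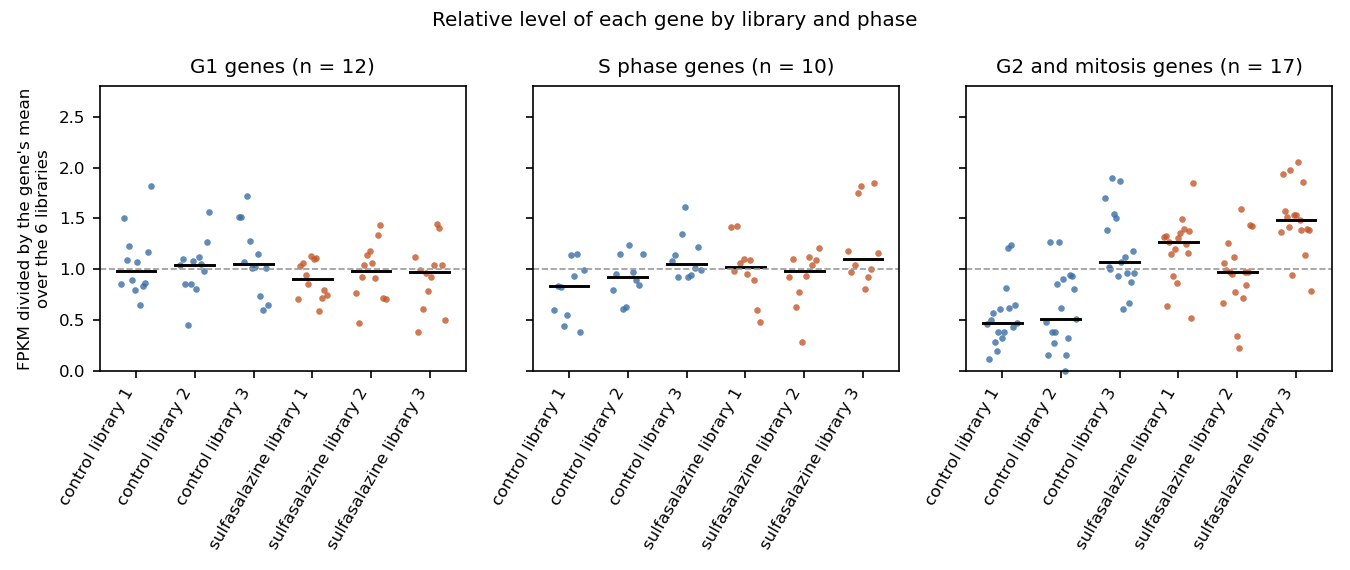
FPKM of each gene divided by its mean over the 6 libraries, for the G1, S phase, and G2 and mitosis genes; each point is a gene and the black bar the median. The medians of the G1 genes lie between 0.901 and 1.05 and those of the G2 and mitosis genes between 0.472 and 1.48, with control libraries 1 and 2 below the other 4.

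Mki67 and Top2a, both used as markers of dividing cells, had control libraries 1 and 2 lowest. Not every gene of G2 and mitosis had this order: Birc5 and Kif20a were lowest in a treated library. Mki67, which encodes the proliferation antigen Ki-67, was at 0.124, 0.118 and 0.819 FPKM in the control libraries and at 0.497, 0.422 and 0.611 in the treated ones. Control library 3 was the highest of the 6, and the treated libraries lay between it and the other controls. Top2a, the topoisomerase that untangles sister chromatids, was at 0.0442, 0.0855 and 0.339 FPKM and at 0.206, 0.211 and 0.436. Control libraries 1 and 2 were again the lowest, and sulfasalazine library 3 was the highest.

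Cyclin B1, the mitotic partner of CDK1, was nearly absent from control libraries 1 and 2. Ccnb1 was at 0.0135, 0.0178 and 0.158 FPKM in the control libraries and at 0.151, 0.122 and 0.221 in the treated ones. By the step, at its longest annotated transcript, these levels are at most 0.590 and 0.885 fragments in control libraries 1 and 2. In the others they are at most 4.11 to 10.1. Values under 1 cannot be whole fragments, so these are rough estimates. Ccna2, cyclin A2, was at 0.118, 0.125 and 0.433 FPKM and at 0.337, 0.170 and 0.349, again with control library 3 above. Ccnb2, cyclin B2, did not follow this order, at 0.239, 0.604 and 0.486 FPKM and at 0.303, 0.472 and 0.745. Its locus has 1 transcript, and by the step these values come to about 6.41 to 21 fragments.

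Of the 4 genes whose promoters are shown, Cdk1 was at 0.167, 0.111 and 0.292 FPKM in the control libraries and at 0.367, 0.365 and 0.438 in the treated ones. Cdc20 was at 0.304, 0.160 and 0.474 FPKM and at 0.614, 0.479 and 0.908. In both, control library 3 was the highest control, and for Cdc20 it lay just under sulfasalazine library 2. The means of Cdk1 were 0.190 ± 0.0926 and 0.390 ± 0.0415 FPKM and those of Cdc20 0.313 ± 0.157 and 0.667 ± 0.219 (SD, n = 3 each). The levels of Cdk1 are at most 9.71 to 35.2 fragments and those of Cdc20 at most 5.76 to 29.95.

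Bub1 stood at 0.0262, 0 and 0.0196 FPKM in the controls and at 0.0480, 0.0509 and 0.0475 in the treated ones. These are at most 3.14 fragments in any library, so the order of the groups rests on a few fragments. Cenpe was at 0.0213, 0.0453 and 0.0423 FPKM and at 0.0668, 0.0473 and 0.0678, or at most 10.1 fragments. For each of these 4 genes an exact two-sided permutation test over the libraries gave p = 0.1, the smallest that 3 against 3 allows, out of 28 genes so tested. Groups that do not overlap always give that value, so the test adds nothing to their order. Adjusted over the 28 genes by Benjamini-Hochberg, the p of this test was 0.7. With quantile normalization over all loci, 0 of the 4 kept groups that did not overlap. With median-of-ratios scaling, 3 genes, in place of 4, had treated libraries all higher. All 17 genes kept a higher treated mean under both. Quantile normalization moved the low loci too: 59.6% of them then had a higher treated mean, with a median ratio of 1.09.

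The other mitotic kinases and their partners overlapped between groups. Plk1, polo-like kinase 1, was at 0.0992, 0.218 and 0.385 FPKM in the control libraries and at 0.306, 0.286 and 0.241 in the treated ones. Aurka, a kinase of the spindle poles, was the most abundant gene of the group at 0.361 to 0.902 FPKM, and Aurkb, the kinase of the chromosomal passenger complex, lay at 0.0485 to 0.276. Birc5, survivin, of the same complex, was at 0.0792, 0.188 and 0.223 FPKM and at 0.282, 0.0478 and 0.428, with its lowest and highest value in treated libraries. Bub1b, a spindle checkpoint gene, was at 0.0153 to 0.133 FPKM over the 6 libraries. Nusap1, of the mitotic spindle, stood at 0.0993, 0.108 and 0.202 FPKM and at 0.388, 0.299 and 0.165. Kif20a, a kinesin of cytokinesis, was at 0.146 to 0.400 FPKM.

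Foxm1 could not be read by itself. The locus that holds its transcripts pools them with those of Nrip2 and Tex52, and it was at 0.121 to 0.223 FPKM, with control library 1 the highest. It was the 1 pooled locus among the 39. The exons of 13 of the 39 genes overlap a gene on the other strand in the annotation, among them Cdc20 with Elovl1 and Nusap1 with Oip5, and their reads cannot be told apart where the counting took no account of strand.

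Control library 3 also stood apart in markers of immune cells and of stellate cells and matrix. It was the highest library for 10 of 10 Kupffer cell and macrophage markers, whose summed FPKM was 74.4 to 296 in control and 113 to 135 in treated libraries. In the control libraries that sum was 109, 74.4 and 296, so it was lowest in control library 2, and the treated libraries lay above both control library 1 and control library 2. The 9 neutrophil markers summed to 0.741, 2.03 and 24.4 FPKM in the control libraries and to 1.01 to 1.75 in the treated ones, with S100a8, Ly6g, Mpo and Elane at 0 in at least 1 library. The 10 lymphocyte markers summed to 2.25 to 6.42 FPKM in control and 2.76 to 4.04 in treated libraries, with Cd79a and Ms4a1 among those at 0 in at least 1. The 9 erythroid markers summed to 258 to 435 FPKM and 375 to 853, with Gata1 at 0 in at least 1. The 8 stellate cell and matrix markers summed to 66.4, 66.2 and 105 FPKM in the control libraries and to 49.2 to 65.1 in the treated ones. The groups did not overlap, but sulfasalazine library 1, the highest treated sum, lay just under control libraries 1 and 2. Control library 3 was the highest library for 7 of these 8 markers. The 8 sinusoidal endothelial markers summed to 47.3 to 58.9 and 52.1 to 59.3 FPKM. The 6 cholangiocyte markers summed to 3.6 to 5.87 and 2.93 to 4.75 FPKM, with Epcam and Cftr at 0 in at least 1 library. The part of these cells in the levels of the mitotic genes was not tested.

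**Figure D4:**
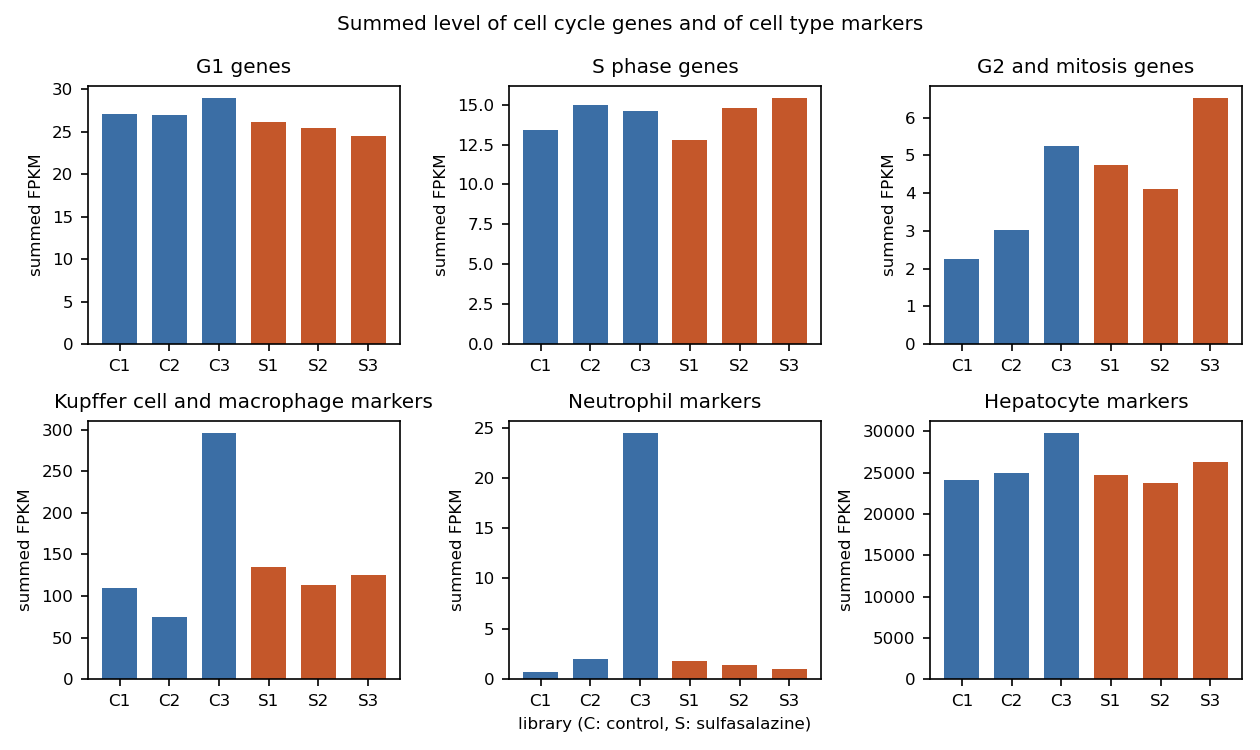
Summed FPKM per library of the G1, S phase, and G2 and mitosis genes (upper row) and of the Kupffer cell and macrophage, neutrophil and hepatocyte markers (lower row); C1 to C3 are control and S1 to S3 sulfasalazine libraries, and each bar starts at 0. The G2 and mitosis genes sum to 2.26, 3.03 and 5.26 in the control libraries and to 4.76, 4.11 and 6.51 in the treated ones, and the neutrophil markers to 24.4 in control library 3 against 2.03 or less in the others.

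Leaving out control library 3, the median ratio of the 17 G2 and mitosis genes was 2.24, and 10 had treated libraries all above the remaining controls, where 12.5% of the low annotated loci had. Over all 39 genes 13 then did so, the others being Mcm2, Mcm3 and Mcm5, and Ccnd2, Rb1, Myc and Mcm7 had all treated libraries lower, where 11.7% of the tested loci had. Leaving out control library 1, the median ratio was 1.30, 13 of the 17 genes had a higher treated mean, and 4 had groups that did not overlap, against 9.97% of the low loci. Leaving out control library 2, 4 did, against 9.14%. Leaving out sulfasalazine library 1, 2 or 3 in turn, 5, 6 and 5 did, against 9.93%, 9.07% and 10.1%, and without sulfasalazine library 3 the median ratio was 1.28, with 14 of the 17 higher. Each of these counts includes Bub1, which was at 0 in control library 2, while the shares are over loci above 0 in each library. The shares of low loci do not cover the 11 of the 39 genes that passed the filter.

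Other genes of the pathway were read from 3 lists, and 0 of their tested genes were called in either direction. Of 47 further genes of G2 and mitosis, 37 had a higher mean in the treated libraries, with a median ratio of 1.4, where 48.6% of the annotated loci above 0 in each library, and 45.6% of those below the filter, had one. Only 8 passed the filter, with a median log2 fold change of 0.05 and 0 called. Relative to each gene's mean, their median was 0.548 and 0.677 in control libraries 1 and 2, 1.19 in control library 3, and 1.05, 0.959 and 1.39 in the treated libraries, so these genes ranked the libraries much as the 17 did. The groups did not overlap for 6 higher and 1 lower, against 6.3% each way over annotated loci above 0 in each library, or 5.33% and 6.41% over those below the filter. In this list and those below, the counts were not limited to genes above 0 in each library, as these shares were. Cks1b, whose small product binds CDKs, stood at 0.177, 0.886 and 0.186 FPKM in the control libraries and at 1.54, 1.13 and 1.32 in the treated ones (limma, adjusted p = 0.593). It passed the filter through the treated libraries alone. The most abundant, Cks2 of the same family, was at 2.67, 5.0 and 4.11 FPKM and at 2.91, 4.6 and 3.55, and the locus of the condensin gene Ncapd2, which pools it with Scarna10, was at 1.85 to 2.64.

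Of 44 further S phase genes 18 were tested, with a median log2 fold change of 0.12 and 0 called. Of all 44, 32 had a higher mean in the treated libraries, with a median ratio of 1.16, and the groups did not overlap for 3 higher and 1 lower. Over annotated loci above 0 in each library, 48.6% had a higher treated mean, with a median ratio of 0.992. There the groups did not overlap for 6.3% higher and 6.3% lower. Pold2, a subunit of DNA polymerase delta, was at 1.62, 2.40 and 2.0 FPKM in the control libraries and at 2.71, 2.77 and 2.71 in the treated ones (limma, adjusted p = 0.647). Rfc5, a subunit of the loader of the PCNA clamp, was at 2.70, 3.37 and 3.14 FPKM and at 2.23, 2.66 and 2.27 (limma, adjusted p = 0.683). Gins4, of the helicase complex, had overlapping groups at 2.60 to 4.41 FPKM.

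Of 25 further G1 genes 16 were tested, with a median log2 fold change of 0.09 and 0 called. Cdkn1a, which encodes the p53-responsive CDK inhibitor p21, was the most abundant, at 15.2, 4.20 and 16.7 FPKM in the control libraries and at 24.2, 11.2 and 22.8 in the treated ones. The groups overlapped, with control library 2 the lowest, and the fitted log2 fold change came to 0.76, SE 0.54 (limma, adjusted p = 0.817). Ccng1, cyclin G1, another p53 target, was at 3.21 to 7.27 FPKM, with its lowest and highest value in treated libraries. Tfdp2, a dimer partner of E2F factors, was at 1.73, 1.23 and 1.24 FPKM and at 0.694, 0.758 and 0.887. It passed the filter through the control libraries alone. E2f4, the E2F factor of resting cells, was at 5.41, 5.44 and 4.81 FPKM and at 4.65, 3.71 and 4.02. Both were lower in each treated library than in each control, while E2f5 at 1.28 to 1.67 and 1.77 to 2.08 FPKM and Rbl2, the pocket protein p130, at 4.14 to 4.36 and 4.57 to 5.09 were higher in each. None of these 4 passed after adjustment (limma, adjusted p between 0.641 and 0.790). They were named for this order, which 2 of the 16 tested genes had higher and 2 lower. Of all tested loci 6.71% had the higher and 6.46% the lower order. Over all 25 genes the counts were 2 higher and 4 lower, against 6.3% each way over annotated loci above 0 in each library.

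The receptor CAR and the growth factor genes around it were read on a list of 22 genes, of which 16 were tested. Limma called 1 of the 16 higher and 0 lower, where 0.0167% and 0.0% of all tested loci were. Of the 22, 10 had a higher treated mean, with a median ratio of 0.973. Over annotated loci above 0 in each library, 48.6% had one. The groups did not overlap for 2 higher, Cyp2b10 and Cyp2c55, and 3 lower, against 6.3% each way over those loci. Egfr and Ccn2, named below, are among the 3. Nr1i3, which encodes CAR, was at 12.2 to 19.5 FPKM in control and 13.1 to 20.1 in treated libraries. Of its target genes, Cyp2b10 was at 27.2, 9.76 and 19.4 FPKM in the control libraries and at 61.6, 58.1 and 68.5 in the treated ones (limma, adjusted p = 0.281). Cyp2c55, at 0.543 to 0.891 and 16.8 to 26.4 FPKM, rose and was the 1 gene of the list that was called (limma, adjusted p = 0.012). It passed the filter through the treated libraries alone, and limma called 0 loci higher with no filter or with the replicate number as a block. Gadd45b, a growth arrest and DNA damage gene that CAR is known to induce in mouse liver, was at 3.88, 2.17 and 2.68 FPKM and at 2.02, 4.19 and 2.61, with overlapping groups. Egfr, the receptor for EGF, a hepatocyte mitogen, was at 23.9, 24.1 and 38.3 FPKM and at 19.2, 6.99 and 20.9, where sulfasalazine library 2 stood lowest (limma, adjusted p = 0.711). Ccn2, a target of the growth regulator YAP, was at 2.82, 3.22 and 2.54 FPKM and at 2.51, 1.24 and 1.45 (limma, adjusted p = 0.632).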

How the data were processed

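The members, gene lists and tests were chosen with earlier results of these data known. Per the labels' protocols, total liver RNA was depleted of ribosomal RNA before library preparation. The authors deposited 1 table of FPKM per locus and library, per the file headers. Listed in the submitters' processing notes, with no versions, are StringTie, Bowtie2, cutadapt, FastQC and the build GRCm38.p5. The annotation release and the strand setting are not given in the sources used here, so genes that overlap on opposite strands cannot be told apart. Transcripts were matched to GENCODE M21 for gene names and coordinates.

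The test was limma 3.58.1 (R 4.3.3) on log2(FPKM + 1), its prior variance following the mean, over loci that reached 1 FPKM in 3 or more libraries, and p-values were adjusted by Benjamini-Hochberg with a threshold of 0.05. This scale understates the change of low genes. Genes below the filter were compared by an exact permutation test. Fragments were estimated from the commonest value of FPKM times length at loci with 1 transcript of over 300 bases. It was matched within 0.5% by 421 to 501 loci per library. Locus totals are upper bounds at the longest transcript if that value is 1 fragment. The genes named from lists are the 2 most abundant and up to 4 whose groups did not overlap and whose mean reached 1 FPKM in either group, by unadjusted p, and Cyp2b10, Cyp2c55, Nr1i3, Gadd45b and Cdkn1a; 1 gene under this rule is not reported here. The procedure was tested on simulated data. Other pseudocounts, filters, scalings, variance models and sets of loci were tried, each library was left out, and the replicate number was fitted as a block. Plots used matplotlib 3.10.9 and Python 3.11.15.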

Additional observations from a re-analysis of the deposited data

How the results depend on the processing

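Over all settings run, 0 members were called in either direction, and adjusted p-values of the tested members by limma lay at 0.326 or above. The 2 loci called higher over the whole table became 1 with a pseudocount of 0.1 or 0.01 or a minimum of 0.1 FPKM, 0 with no filter or with the replicate block, 6 with a minimum of 5 FPKM, 23 without the trend, 9 over loci with an Ensembl transcript and 7 with FPKM summed per symbol. The 0 called lower became 1 with 5 FPKM, 22 without the trend and 3 over loci with an Ensembl transcript. With quantile normalization 0 genes, and with median-of-ratios scaling 3, in place of 4, had treated libraries all higher. The cause was not tested. Leaving out 1 library gave 1 to 9 loci higher and 0 to 6 lower, 4 to 13 of the 39 genes and 4 to 10 of the 17 mitotic genes with treated libraries all higher, and 1 to 4 with all lower; the count for the 17 genes alone was added after seeing the data. Ccnd3 turned to 0.53 with FPKM summed per symbol. Without 1 library, log2 fold changes ran from -0.088 to 0.035 for Ccnd3, -0.030 to 0.22 for Cdk2, -0.027 to 0.15 for Cdk4, -0.12 to 0.18 for Cdkn1b and -0.35 to 0.15 for Tyms. Same-numbered libraries did not deviate together (correlations of 0.00967, -0.0668 and -0.0222), and the labels state no pairing. Depth limits the G2 and mitosis genes most, with at most 3.14 fragments for Bub1.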
